A study of Mus musculus with 15 samples.

Results

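*Perp* encodes a tetraspan membrane protein of epithelial cells, related to the PMP22 family. It is a known target of p53 in apoptosis and of p63 in stratified epithelia, where the protein sits in desmosomes, the junctions that hold neighbouring epithelial cells together. The *Perp* locus was taken as every listed region that overlaps chromosome 10 of mm39 from 18718000 to 18735000, with the gene on the plus strand. The window was chosen because counts there were higher in *Smarcd1* knockdown (KD) than in shScramble (Scr) libraries, so the KD and Scr values below are a description, without a test. It held 4 of the 82634 regions of both tables, 2 in the table of the KD comparison and 2 in that of the overexpression (OE) comparison.

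The libraries came from monolayers of 6DT1 cells, a metastatic mouse mammary cancer line, and were made to ask whether *Smarcd1*, a subunit gene of the BAF chromatin remodeling complex, alters accessible chromatin. There were 3 libraries each of the knockdown lines KD4 and KD6, transduced with an shRNA against *Smarcd1*, of Scr, of OE cells transduced with a *Smarcd1* cDNA carrying a C-terminal Myc tag, and of their empty vector (EV) control, all made by lentiviral transduction. The methods give puromycin as the agent for shRNA cells and blasticidin for overexpression cells, whose cDNA was driven by a pol2 promoter. The labels do not say which of the shRNAs of the methods KD4 and KD6 carry. The level of *Smarcd1* itself was not checked here. The labels describe replicates as separate passages seeded on successive days, but in a text about RNA extraction, so the p-values cover the spread between libraries that may be technical. ATAC-seq inserts adapters where DNA is open and the methods describe it for these cells. The labels give genomic DNA as the molecule, whereas their extraction protocol describes mRNA libraries. Whether the counts are of ATAC-seq reads, of RNA reads or of both was not tested. Total counts were 16176524 to 23703755 per library in the KD table and 22668629 to 31225952 in the OE table. Levels are given as CPM (counts scaled to library size, with TMM factors over all 15 libraries of a table) and are not comparable between the tables.

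The 4 regions lay toward the 5′ and the 3′ end of the window, short of both ends, with none between. In the KD table, a 5′ region of 262 bp spanned 18720893 to 18721154, and a 3′ region of 1401 bp spanned 18731412 to 18732812. In the OE table, no region was listed at the 5′ end. An upstream piece of 197 bp, from 18731478 to 18731674, and a downstream piece of 206 bp, from 18732096 to 18732301, both lay inside the 3′ region. The pieces and the 3′ region therefore share reads of the same libraries and are not independent measurements. The 3′ region was among the widest of its table, with 220 wider regions of 44598 and a median width of 302 bp.

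The spacing of the regions was set beside the exons of *Perp*. No annotation of mm39 was used, so only lengths and distances were taken from GENCODE M1, an annotation of the older build NCBIM37. There, the single *Perp* transcript has 3 exons of 336, 141 and 1424 bp. Exon 3 starts 10579 bp after exon 1, and the start of the 3′ region lies 10519 bp after that of the 5′ region. With this distance kept, there were 15 placements, 1 bp apart, in which the 5′ region lay wholly inside exon 1 and the 3′ region wholly inside exon 3. In these placements the 3′ region began 0 to 14 bp after the start of exon 3 and was nearly as long as the exon. The upstream piece spanned offsets of 66 to 80 bp through 262 to 276 bp, across the end of the coding part of exon 3, which is 224 bp long. The downstream piece began at offsets of 684 to 698 bp, within the 3′ untranslated region. Exon 2 had no listed region in either table. With both strands allowed, a placement wholly inside exons exists for 11 of the 1039 annotated protein-coding genes of chromosome 10. The spacing alone therefore does not name the gene. This count does not give how closely the exons concerned match the regions in length.

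**Figure D1:**
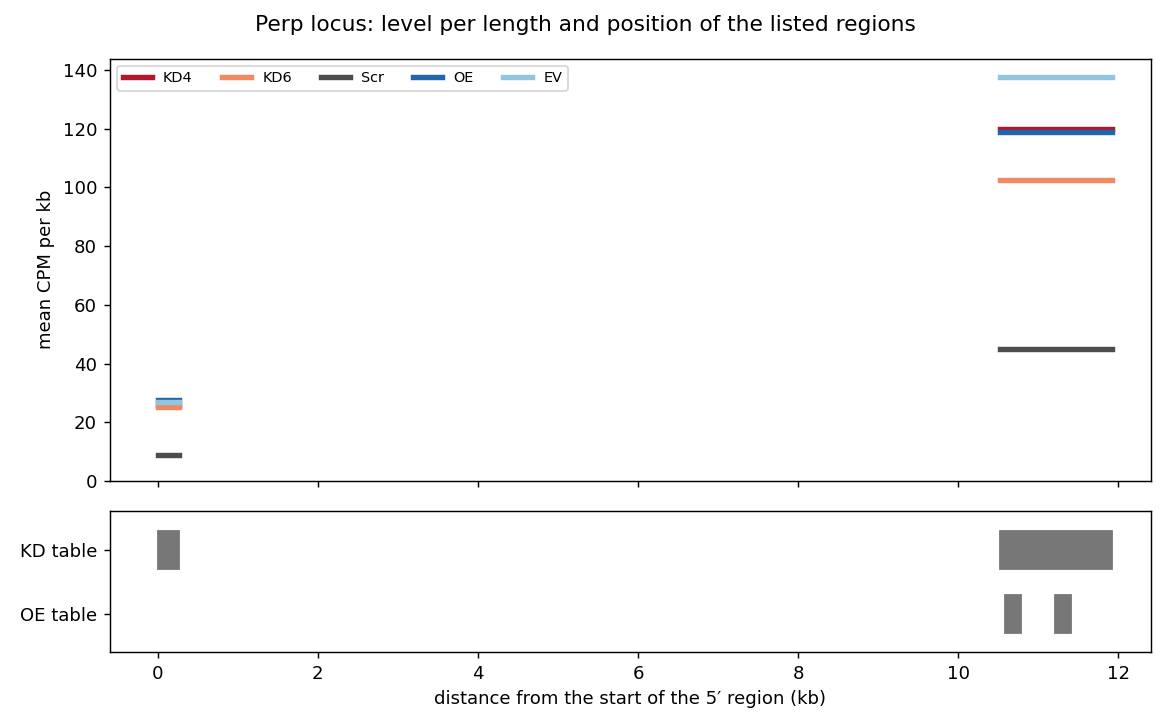
Upper panel, mean CPM per kb of each group (colored lines, n = 3) at the 5′ and 3′ regions of the KD table, against the distance from the start of the 5′ region in kb. Lower panel, position and width of the 4 listed regions in each table. The 3′ region lies 10519 bp downstream, has the higher level per length in every group, and has its lowest mean in Scr at both ends.

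Most of the signal of the locus lay at the 3′ end. Over the 15 libraries, the 3′ region averaged 146.9 CPM, a level that 948 regions of the KD table exceeded, while the 5′ region averaged 5.99 CPM, a level above that of 51.4% of the regions. Per length, the 3′ region had 104.8 CPM per kb and the 5′ region 22.8 CPM per kb, against a median over all regions of 18.2 CPM per kb. Counts per kb at the 3′ region were 3.55 to 7.60 times those at the 5′ region in the single libraries. This ratio was 4.69 ± 0.513 in KD4, 4.06 ± 0.55 in KD6, 5.29 ± 1.71 in Scr, 4.38 ± 0.546 in OE and 5.37 ± 1.93 in EV (SD, n = 3 each), and the groups overlapped. The lower counts in Scr were found at both ends, with overlapping proportions between them. ATAC-seq signal is commonly strongest near promoters, and whether reads of RNA took part in the 3′ signal was not tested.

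At the 3′ region, the 3 Scr libraries stood below all the others. KD4 had 171.1, 157.4 and 176.0 CPM in replicates 1, 2 and 3, KD6 had 172.3, 131.8 and 127.4 CPM, and Scr had 71.8, 63.6 and 53.4 CPM. OE libraries had 173.4, 162.8 and 164.2 CPM and EV libraries 223.1, 181.9 and 172.9 CPM. The KD libraries thus lay near the OE and EV libraries, and 3 of the 6 fell within the range spanned by OE and EV, with the other 3 below it. The lowest library outside Scr, KD6 replicate 3, had 1.77 times the CPM of the highest Scr library. Means were 168.2 ± 9.63 CPM in KD4, 143.8 ± 24.8 in KD6, 62.9 ± 9.25 in Scr, 166.8 ± 5.80 in OE and 192.6 ± 26.8 in EV (SD, n = 3 each). From the highest mean down, the order was EV, KD4, OE, KD6 and Scr, and neighbours in this order overlapped except KD6 and Scr. The log2 fold change was 1.42 (SE 0.148) for KD4 and 1.19 (SE 0.147) for KD6, each over the same Scr libraries.

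At the 5′ region, the level was lower but the order of Scr and the rest was the same. KD4 had 7.71, 5.69 and 6.94 CPM, KD6 had 6.94, 6.95 and 5.97 CPM, and Scr had 1.86, 2.61 and 2.46 CPM. OE libraries had 7.63, 6.11 and 7.84 CPM and EV libraries 5.49, 7.91 and 7.67 CPM. All 6 KD libraries fell within the range of OE and EV, and the lowest of the 12 libraries outside Scr, EV replicate 1, had 2.11 times the CPM of the highest Scr library. Means were 7.19 ± 0.944 CPM in OE, 7.02 ± 1.33 in EV, 6.78 ± 1.02 in KD4 and 6.62 ± 0.561 in KD6, which overlapped throughout, and 2.31 ± 0.397 in Scr (SD, n = 3 each). The log2 fold change over Scr was 1.54 (SE 0.201) in KD4 and 1.51 (SE 0.201) in KD6. The Scr values rest on 30 to 50 counts per library, and the exact Poisson interval (95%) of the 30 counts is 20.2 to 42.8, which covers counting error only.

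**Figure D2:**
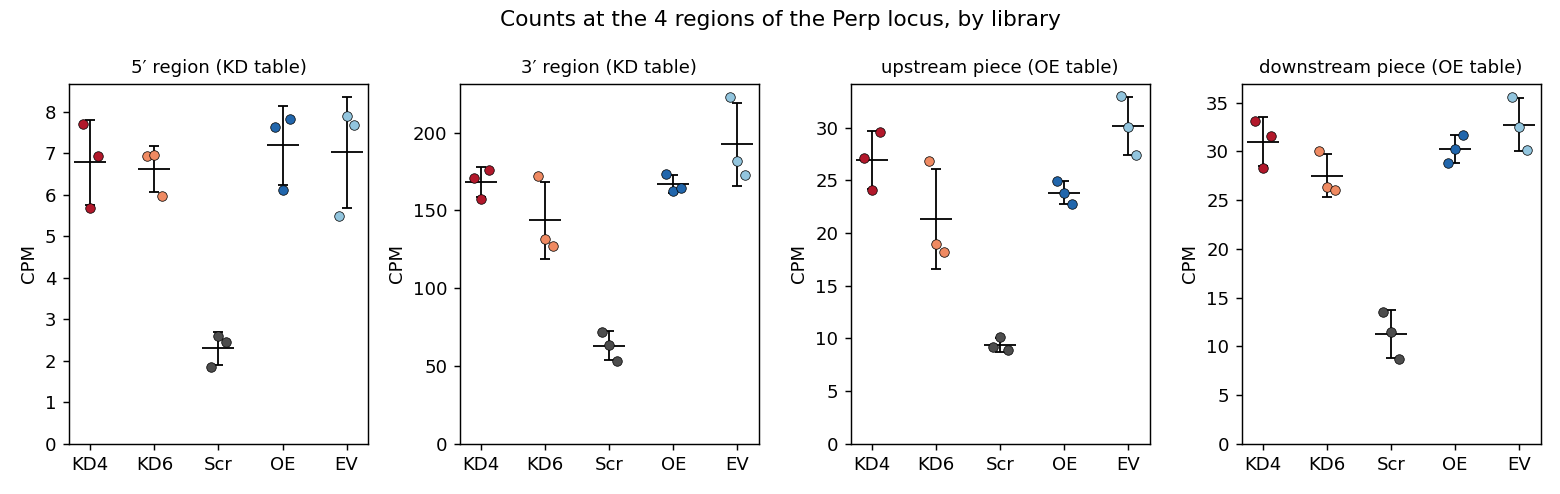
CPM of each library (points) at the 4 regions of the *Perp* locus, with group means and SDs as bars (n = 3); each y axis starts at 0. Scr libraries lie below all 12 KD4, KD6, OE and EV libraries at every region, for example at 53.4 to 71.8 CPM against 127.4 to 223.1 CPM at the 3′ region.

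The pieces listed in the OE table showed the same order. At the upstream piece, KD4 had 27.2, 24.1 and 29.6 CPM, KD6 had 26.8, 19.0 and 18.2 CPM, and Scr had 9.17, 10.1 and 8.87 CPM. OE had 24.9, 23.8 and 22.8 CPM there, and EV had 33.0, 30.1 and 27.4 CPM. At the downstream piece, KD4 had 33.2, 28.3 and 31.5 CPM, KD6 had 30.1, 26.4 and 26.1 CPM, and Scr had 13.5, 11.5 and 8.68 CPM. OE had 28.8, 30.3 and 31.6 CPM there, and EV had 35.6, 32.5 and 30.1 CPM. Scr was again below every other library at both pieces, and KD6 replicate 3 was the lowest outside Scr, at 1.80 times the highest Scr library for the upstream piece and 1.92 times for the downstream piece. The log2 fold changes over Scr were 1.52 (SE 0.164) in KD4 and 1.18 (SE 0.164) in KD6 at the upstream piece, and 1.47 (SE 0.16) and 1.29 (SE 0.16) at the downstream piece. The pieces cover 28.8% of the width of the 3′ region, and the counts listed for them came to 37.7% to 47.6% of those of the 3′ region in the same libraries. These counts come from 2 tables that differ in total counts, and how reads were assigned is not given. The percentage is therefore not a measured share of the reads of the 3′ region.

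The locus was chosen from the averaged knockdown lines over Scr. Its log2 fold changes were 1.53 (SE 0.183) at the 5′ region, 1.31 (SE 0.134) at the 3′ region, 1.35 (SE 0.149) at the upstream piece and 1.38 (SE 0.145) at the downstream piece, beside medians over all tested regions of -0.005 (KD table) and -0.016 (OE table). All 4 regions were among those higher in KD at a false discovery rate (FDR) of 0.05 (edgeR), a call made for 0.255% of the 44267 regions tested in the KD table and 0.0739% of the 37868 tested in the OE table. The locus was picked from these calls, so nothing is read from this count. All 6 KD libraries lay above all 3 Scr libraries at 2.43% of the KD table's regions and 2.41% of those of the OE table.

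The gap by which Scr lay below the other lines was among the widest of each table. All 12 libraries outside Scr lay above all 3 Scr libraries at 1.21% of the KD table's regions and 1.19% of those of the OE table. The lowest of the 12 exceeded 1.5 times the highest Scr library at 23 regions of the KD table (0.0516%) and at 6 of the OE table (0.0158%), and these include all 4 *Perp* regions. By the ratio of the lowest other library to the highest Scr library, 4 regions of the KD table exceeded the 5′ region and 6 exceeded the 3′ region. In the OE table, 1 region exceeded the upstream piece and 0 the downstream piece. The locus was chosen for high KD and low Scr values, and both enter this ratio, so these ranks are a description. Gaps with Scr above the other lines were not ranked. Scr is the control of the shRNA lines and EV that of the cDNA lines, and a difference between these controls cannot be told apart from one between the sets of lines.

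Overexpression of *Smarcd1* was measured in libraries that did not enter the choice of the locus. In the OE table, the log2 fold change of OE over EV was -0.32 (SE 0.113, 95% interval -0.56 to -0.08, adjusted p = 0.569 from edgeR) at the upstream piece, with an unadjusted p of 0.0109, and -0.10 (SE 0.111, 95% interval -0.33 to 0.14, adjusted p = 0.793 from edgeR) at the downstream piece. The 3 OE libraries lay below the 3 EV libraries at the upstream piece, as they did at 7.28% of all regions of that table, and overlapped with them at the downstream piece. In the KD table, where this held for 5.17% of regions, OE and EV overlapped at both *Perp* regions. In the KD table, the log2 fold change of OE over EV was 0.03 (SE 0.174, 95% interval -0.33 to 0.40, adjusted p = 0.98 from edgeR) at the 5′ region and -0.20 (SE 0.122, 95% interval -0.46 to 0.06, adjusted p = 0.79 from edgeR) at the 3′ region. Thus 0 of the 4 regions passed FDR 0.05 with edgeR and 0 with DESeq2, and 1 had an unadjusted edgeR p under 0.05. In the whole tables, edgeR called 0.0% of 44011 regions in the KD table and 0.0106% of 37765 in the OE table, and an unadjusted p under 0.05 was found for 6.59% and 8.58% of them. Summed over both pieces, the OE libraries had 54.0 CPM ± 0.359 and the EV libraries 62.9 ± 5.52 (SD, n = 3 each; two-sided exact permutation p = 0.1, the smallest that the design allows). Summed over the 5′ and 3′ regions, the OE libraries had 174.0 CPM ± 6.33 and the EV libraries 199.7 ± 25.5 (SD, n = 3 each; exact permutation p = 0.2). Without EV replicate 1, the log2 ratio of these sums moved to -0.09 with all other libraries kept, against -0.20 with it, and the fold change at the 3′ region moved to -0.09. Without TMM factors, the log2 ratio over the pieces was -0.10, against -0.22 with them. At the 5′ region, the sign of the difference depended on single libraries.

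None of the 4 regions passed FDR 0.05 between the knockdown lines, and KD6 had the lower mean at each. The log2 fold change of KD6 over KD4 was -0.03 (SE 0.181, 95% interval -0.41 to 0.35) at the 5′ region, -0.23 (SE 0.145, 95% interval -0.53 to 0.08) at the 3′ region, -0.34 (SE 0.158, 95% interval -0.67 to -0.003) at the upstream piece and -0.17 (SE 0.154, 95% interval -0.50 to 0.15) at the downstream piece. The adjusted p was at least 0.93 at each (edgeR), and the upstream piece had an unadjusted edgeR p of 0.0484. The count past FDR 0.05 was 0 with edgeR and with DESeq2, where 0.224% of the KD table's regions and 0.19% of those of the OE table did with edgeR and 6.37% and 5.04% had an unadjusted p under 0.05. KD6 replicate 1 lay near the KD4 libraries at the 3′ region and KD6 replicates 2 and 3 below them. Summed CPM over the KD table's regions was 150.4 ± 25.1 in KD6 and 175.0 ± 10.5 in KD4 (SD, n = 3 each; two-sided exact permutation p = 0.3, where 0.1 is the smallest possible). Over the OE table's pieces it was 48.8 ± 7.00 in KD6 and 57.9 ± 4.86 in KD4 (SD, n = 3 each; exact permutation p = 0.2). The intervals with all libraries leave room for differences in either direction at 3 of the 4 regions. Without KD6 replicate 1, the log2 fold change was -0.38 (95% interval -0.68 to -0.07) at the 3′ region and -0.54 (95% interval -0.86 to -0.21) at the upstream piece. The unadjusted edgeR values of p were then 0.0196 and 0.00283 and the adjusted ones 0.516 and 0.359, so that the size of the difference, but not the call, depended on this library.

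**Figure D3:**
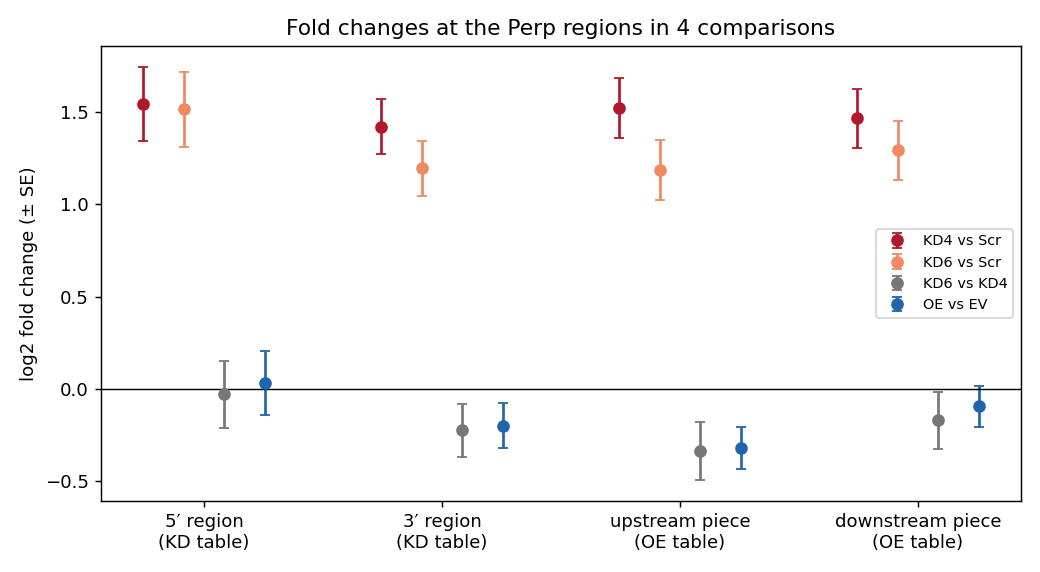
Log2 fold change (points) with its standard error (bars) at the 4 regions of the *Perp* locus for KD4 vs Scr, KD6 vs Scr, KD6 vs KD4 and OE vs EV. Both comparisons with Scr, which chose the locus and share the Scr libraries, lie between 1.18 and 1.54, and those without Scr lie between -0.34 and 0.03.

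No region was listed close to the locus. The nearest in the KD table lay 296.4 kb before and 141.9 kb after the window, and those of the OE table lay 308.7 kb before and 142.0 kb after it. Over the 5 nearest regions on each side, the log2 fold changes of KD over Scr ran from -0.38 to 0.56 (KD table) and from -0.31 to 0.63 (OE table). Their adjusted p was at least 0.577 and at least 0.448 (edgeR). All were below the 4 values of the *Perp* locus, which was chosen for high values in this comparison, so this order is a description. The highest value in each table was at the first region after the window, from 18876939 to 18877237 in the KD table, with 3.58 CPM in KD4, 3.10 CPM in KD6 and 2.23 CPM in Scr (means, n = 3 each). There the 3 OE libraries averaged 2.39 CPM, near Scr, unlike at *Perp*. For OE over EV, the log2 fold changes of the neighbours ran from -0.25 to 0.31 in the KD table and from -0.27 to 0.22 in the OE table.

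**Figure D4:**
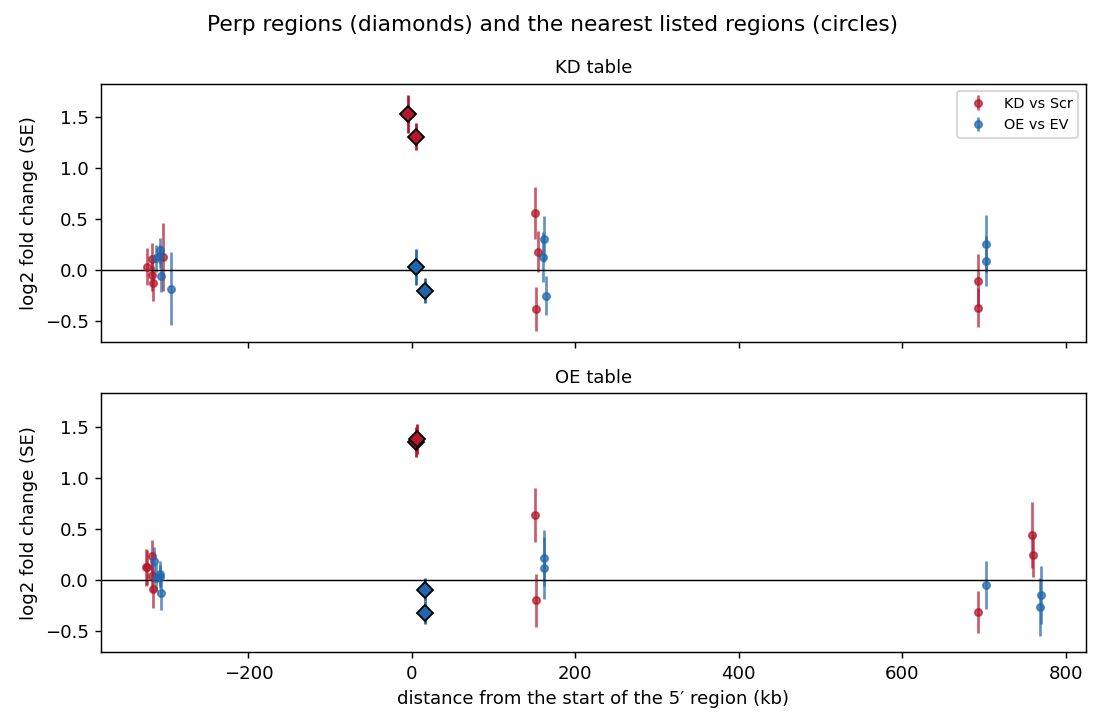
Log2 fold change with its standard error at the *Perp* regions (diamonds) and at the 5 nearest listed regions on each side (circles), for KD vs Scr and OE vs EV, against the distance from the start of the 5′ region in kb; the comparisons are drawn slightly apart. The KD vs Scr values of 1.31 to 1.53 at *Perp*, which was chosen from this comparison, lie above those of the neighbours, which reach 0.63.

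Regions elsewhere whose levels followed the 3′ region most closely were sought among 23823 regions of the KD table with a mean of at least 5 CPM, by Pearson's r of log2(CPM + 1) over the 15 libraries. The first was a region of chromosome 8 from 40936765 to 40937642 (r = 0.969), with 8.83 CPM in KD4, 8.62 in KD6, 5.25 in Scr, 8.47 in OE and 9.75 in EV (means, n = 3 each). The next were on chromosome 2 from 155091847 to 155092190 (r = 0.96), chromosome 19 from 16363942 to 16364810 (r = 0.959), chromosome 12 from 85389147 to 85390274 (r = 0.957) and chromosome 1 from 191353291 to 191354722 (r = 0.956). All 5 had their lowest mean in Scr, and the last, of 1432 bp, had 52.8 CPM in KD4, 46.6 in KD6, 23.5 in Scr, 53.5 in OE and 56.9 in EV. The step between Scr and the rest enters all of these values. Over the 12 libraries outside Scr, r was 0.68 to 0.879 for the 5 regions, and Spearman's rho was 0.245 to 0.657. These 12 libraries took part in the ranking that picked the 5 regions, which favors a high r among them. The 5′ region of *Perp* had r = 0.893 with the 3′ region over 15 libraries. Over the 12 outside Scr, its r was 0.029 and its rho 0.21. It was not picked by r, and it had 112 to 177 counts in these libraries. Counting error is part of the spread at such counts, so whether the ends of the locus follow each other outside Scr cannot be told. Over the 9 KD4, KD6 and Scr libraries, the most similar region was one of chromosome 5 from 73479628 to 73480128 (r = 0.981), and 1 of its first 5 was also among the first 5 over all libraries. Ranking by Spearman's rho in place of Pearson's r kept 0 of the 5 regions, over the 15 libraries and over the 9, so the list depends on the measure. The ranked regions carry no gene names.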

How the data were processed

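The authors deposited expected counts for each region, without normalization. Their methods name Bowtie2 for alignment to mm39 and MACS for peaks, and the submitters' processing notes list STAR 2.7.8a. The sources used here do not give how peaks were merged or reads assigned. Another 15 columns of each file match no sample and were not used. Values were rounded to whole counts. Differences at regions were fitted by edgeR 4.0.16, run in R 4.3.3 (quasi-likelihood, TMM, the tool's filter on low counts, Benjamini-Hochberg over all regions of a table). Scr, KD4 and KD6 were fitted as 3 groups and OE with EV alone, in each table separately. The procedure was tested on simulated data. Single values were compared by exact permutation tests in scipy 1.17.1. The window, the lists and the naming rule (all window regions, the 5 nearest on each side, the 5 most alike) were chosen with earlier results of these data known. Marker genes and other genes of the pathway need an annotation of mm39 and were not used here, and no sequence is given. Replicates differed by more than sampling noise (variance at least 3.53 times that of sampling). Alternatives were other scalings, no filter, DESeq2 1.42.0, a replicate block and each library left out.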

Additional observations from a re-analysis of the deposited data

How the results depend on the processing

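With no TMM, RLE size factors, no filter, DESeq2 or a replicate block, both regions of each table stayed higher in KD, and 0 stayed the number past FDR 0.05 for OE vs EV and for KD6 vs KD4. Both regions of each table also passed for KD4 alone and for KD6 alone over Scr with all libraries. Of all tested regions, edgeR called 0.431% (KD table) and 0.108% (OE table) higher in KD4, and 0.142% and 0.0132% higher in KD6. The locus was picked with the same Scr libraries, so nothing is read from the KD over Scr counts of this section. Of 14 alternatives, KD4 alone passed in 14 at each region, and KD6 alone in 13 at the 5′ region, 14 at the 3′ region, 10 at the upstream piece and 12 at the downstream piece. KD6 alone was lost without KD6 replicate 1 or 2, or without Scr replicate 1 or 3, with log2 fold changes there of 0.99 to 1.38. Leaving out single libraries gave KD vs Scr log2 fold changes of 1.40 to 1.63 at the 5′ region, 1.20 to 1.41 at the 3′ region, 1.25 to 1.41 at the upstream piece and 1.23 to 1.53 at the downstream piece. At the 5′ region these fits gave -0.12 to 0.14 for OE vs EV, negative without OE replicate 1 (-0.016), OE replicate 3 (-0.032) or EV replicate 1 (-0.12), and -0.14 to 0.0705 for KD6 vs KD4, positive without KD4 replicate 1 (0.0705) or KD6 replicate 3 (0.038). Without TMM, OE vs EV at the downstream piece was 0.0061. Spearman's rho kept 0 of the 5 most similar regions, over 15 libraries and over 9. The numbers were not taken to pair libraries, since no label says so and not every same-numbered pair deviated together. Their r was -0.24 to 0.32 (KD table) and -0.35 to 0.39 (OE table) for KD4, KD6 and Scr. Pairs of these lines with different numbers had r of -0.49 to 0.42 and -0.59 to 0.53. For OE and EV, replicates 2 and 3 did (0.262 and 0.283 in the KD table, 0.354 and 0.33 for the OE table) and replicate 1 did not (-0.034 and -0.053). OE and EV pairs with different numbers had r of -0.30 to 0.085 and -0.40 to 0.13, below replicates 2 and 3. With the replicate block, OE vs EV at the upstream piece had an unadjusted edgeR p of 0.0056 (adjusted 0.313), against 0.0109 (adjusted 0.569) without it. With the replicate block, which leaves a number of 2 of 2 regions past FDR 0.05 for KD vs Scr in each table, the log2 fold changes were 1.53 and 1.31 at the 5′ and 3′ regions. Low counts limit the 5′ region, where Scr had 30 to 50 counts.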

Other observations

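The low Scr level seen at *Perp* was common among the regions higher in KD than in Scr, the *Perp* regions included, a comparison made after the values had been seen. Of the 113 such regions of the KD table, 80 (70.8%) had all 6 OE and EV libraries above all 3 Scr libraries, as did 6.94% of all regions, and 111 (98.2%) had a mean of the OE and EV libraries above the Scr mean, as did 49.5% of all regions. In the OE table these numbers were 24 (85.7%) and 28 of 28, against 6.45% and 48.5% of all regions. The regions were selected with the same Scr libraries, which favors low Scr values among them.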
